A study of Rattus norvegicus with 9 samples.

Results

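The genes described here are 10 transcripts of the stress programme run by the transcription factor ATF4: Atf4 itself, Atf3, Atf5, Ddit3, Trib3, Chac1, Asns, Sesn2, Ddit4 and Stc2. They were taken by symbol from a table of 22050 genes. Each symbol matched 1 row, and all 10 were among the 11473 genes with enough counts to be tested. The cells were NRK-49F, an established line of normal rat kidney fibroblasts, labelled wild type, and all 9 libraries came from cells exposed to TGF-β1, per the labels for 48 h. The 3 groups of 3 libraries were vehicle, YEXX-2A and YWCH-4A, each on top of TGF-β1. Neither the dose nor the timing of the compounds is given in the labels, and both compounds are known here by code name alone. Untreated cells (no TGF-β1) were not analysed here. The libraries are stated to be biological replicates of a single cell line, with nothing on whether the cultures were set up separately, so the p-values speak of the spread among these 9 libraries alone.

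ATF4 is the main effector of the integrated stress response. Kinases that sense amino acid shortage, unfolded protein in the endoplasmic reticulum, viral RNA or haem deficiency phosphorylate the initiation factor eIF2, which lowers general translation but raises translation of the Atf4 mRNA. The ATF4 protein then pairs with other leucine zipper proteins, C/EBP factors among them, and switches on genes of amino acid uptake and synthesis, tRNA charging and stress feedback. In fibroblasts given TGF-β1, ATF4 is known for supplying the amino acids that collagen is built from. RNA levels do not show how much ATF4 protein was made.

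The DNA element through which ATF4 and C/EBP proteins act together is shown first, because the members differ in whether it lies next to their start sites. Promoters (250 bases before to 50 bases after the start of the gene) were taken from RefSeq, build GRCr8, which held 9 of the 10 members, all but Atf3. The element was searched as TGATGNAA on both strands. It occurred in the promoters of Chac1 and Trib3, that is in 2 of 9 members, and in 3.98% of all 33469 promoters of that length. In Chac1 it lay at positions -167 to -160 and in Trib3 at positions -21 to -14 from the start, in both on the strand opposite to the gene. The cyclic AMP response element TGACGTCA was in none of the 9 and in 1.83% of all. The 3 stretches below are written 5′ to 3′ in the direction of the gene, with the element in capitals. They lie at chr3:126795931-126796030 (+ strand, Chac1), chr3:161275534-161275653 (- strand, Trib3) and chr7:65001585-65001684 (+ strand, Ddit3). Ddit3, without the element in the promoter window searched, is shown beside them as the member that fell least with YWCH-4A. Other members without the element in that window fell steeply with that compound, Stc2 by 5.85-fold and Sesn2 by 2.67-fold. Whether the element had a part in any of these falls was not tested.
Chac1: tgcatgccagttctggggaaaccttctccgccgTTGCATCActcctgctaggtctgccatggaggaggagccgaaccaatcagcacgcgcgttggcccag
Trib3: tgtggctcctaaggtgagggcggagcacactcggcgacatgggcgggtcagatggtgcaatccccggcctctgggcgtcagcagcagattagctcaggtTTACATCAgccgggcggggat
Ddit3: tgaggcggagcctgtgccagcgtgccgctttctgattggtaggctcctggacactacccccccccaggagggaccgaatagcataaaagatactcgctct
A match is a run of letters and not a measured binding site, and a promoter without one may hold the element outside this window.

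Total estimated counts per library ran from 13675880 to 21923706. The members were well covered, except Atf3 with 58 to 155 counts per library. Vehicle libraries spread more than the others, with a biological coefficient of variation of 16.7%, against 7.39% with YEXX-2A and 3.66% with YWCH-4A. Vehicle replicate 2 stood apart from the rest of its group, and it was the highest vehicle library for 10 of 10 members in CPM (counts scaled to library size), as it was for 43.3% of tested genes, and for 8 of 10 in FPKM, which is also scaled by gene length (33.6% of tested genes). Its mitochondrially encoded share of counts was 1.42%, against 1.9% and 2.04% in the other vehicle libraries, 2.3% to 2.66% with YEXX-2A and 1.88% to 2% with YWCH-4A. Of 8 fibroblast and mesenchymal markers in the table, 6 were present (Col1a1, Pdgfra, Pdgfrb, Vim, S100a4 and Lum) and Thy1 and Dcn stayed under 1 CPM. Their summed level was 35010 to 45980 CPM with vehicle, 27830 to 30500 with YEXX-2A and 10040 to 10860 with YWCH-4A, and Col1a1 and Vim carried most of it. Against vehicle, both of these fell with YWCH-4A (log2 fold changes -2.32 and -1.10), Pdgfra rose (0.69) and Pdgfrb, S100a4 and Lum were not called. With YEXX-2A Col1a1, Pdgfrb and Lum fell and the other 3 were not called. Of 8 kidney epithelial markers 7 stayed under 1 CPM in each library (Epcam, Krt18, Umod and Aqp2 at 0), and so did 4 of 4 endothelial (summed level at most 1.32 CPM) and 6 of 7 leukocyte markers (Cd3e at 0). The exceptions were Krt8, which made up nearly all of the summed epithelial level of 1713 to 2203 CPM with vehicle, 1482 to 1568 with YEXX-2A and 897 to 945 with YWCH-4A, and Cd68, which made up nearly all of the leukocyte level of 47.3 to 62.9, 41.7 to 45.1 and 66.2 to 73.7 CPM. The part of these differences in the results was not tested. In bulk RNA, fewer cells making a transcript and less of it per cell cannot be told apart.

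With YWCH-4A, 9 of the 10 members fell and Atf3 rose, a gene being called where its edgeR adjusted p was under 0.05. Among all tested genes, 14.9% fell and 15.7% rose in this comparison. The 3 steepest falls were those of Chac1 (6.97-fold), Trib3 (6.25-fold) and Stc2 (5.85-fold), and Atf4 itself went from a mean of 670.4 CPM to 303 CPM. The median log2 fold change of the 10 was -1.20, against 0.03 over all tested genes. Of the 10, 6 were called and at least 2-fold lower (2.95% of tested genes were). With YEXX-2A, 7 members fell, Atf5 rose, and Atf4 and Atf3 were not called. The background was 18.5% of tested genes lower and 17.6% higher. Here the median was -0.43, against 0.01 over all tested genes, and the largest change was the 1.54-fold fall of Stc2. With limma on log2(FPKM + 1) the share of calls that were higher was 78.1% with YWCH-4A and 62% with YEXX-2A, against 51.2% and 48.8% here, and the members kept their directions. The plot of levels by library shows every value.

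**Figure D1:**
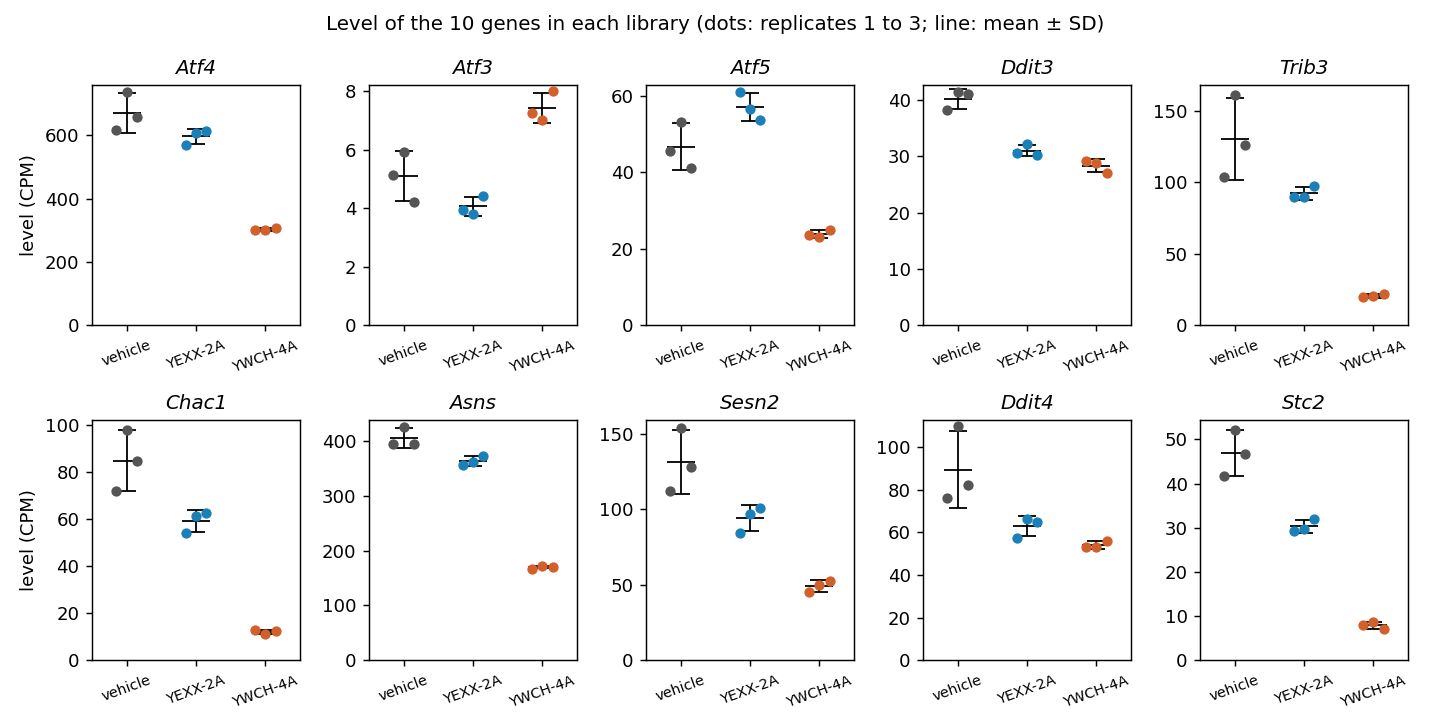
Level of each of the 10 genes in CPM (vertical axes, each starting at 0) in the 3 libraries of each group, with dots for libraries and lines for the mean and SD. The YWCH-4A libraries lie below all vehicle libraries in 9 panels and above them in the Atf3 panel. The share of all tested genes without overlap in this comparison is not given here, so the count only describes the panels.

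The transcription factors are described first. Atf4 (ENSRNOG00000017801) stood at 615, 737 and 659 CPM with vehicle, at 571, 607 and 614 CPM with YEXX-2A and at 299.8, 302 and 307 CPM with YWCH-4A. All YWCH-4A libraries were below all others, and the YEXX-2A libraries lay just below the lowest vehicle library. The fall with YWCH-4A was 2.22-fold (log2 fold change -1.15 with an SE of 0.07, edgeR adjusted p = 8.03e-07). With YEXX-2A the log2 fold change was -0.17 (95% interval -0.32 to -0.01, edgeR adjusted p = 0.0843), and it was -0.09 without vehicle replicate 2. Without vehicle replicate 1 it was -0.22 and called (edgeR adjusted p = 0.0384).

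Atf5 (ENSRNOG00000020060), a close relative of ATF4 that is likewise controlled at translation and induces mitochondrial stress genes, gave opposite calls for the compounds. Its level was 45.5, 53.2 and 41.1 CPM with vehicle, 60.9, 56.6 and 53.6 CPM with YEXX-2A and 23.5, 22.98 and 25.01 CPM with YWCH-4A. The 3 groups did not overlap, although the highest vehicle and lowest YEXX-2A libraries nearly met. It fell by 0.97 on the log2 scale with YWCH-4A (SE 0.10, edgeR adjusted p = 4.36e-05) and rose by 0.29 with YEXX-2A (SE 0.10, edgeR adjusted p = 0.0423). The rise with YEXX-2A was called under 8 of 20 alternative settings, and leaving out any library other than vehicle replicate 2 ended the call (adjusted p from 0.0522 to 0.139).

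Atf3 (ENSRNOG00000003745), an early stress factor that represses or activates according to its partner, was the least abundant member. It stood at 5.14, 5.94 and 4.23 CPM with vehicle, at 3.96, 3.81 and 4.44 CPM with YEXX-2A and at 7.27, 7.004 and 8.004 CPM with YWCH-4A. Its YWCH-4A libraries were the highest of all, while vehicle and YEXX-2A overlapped. The log2 fold change with YWCH-4A was 0.54 (SE 0.15, edgeR adjusted p = 0.0201). That call was lost under 6 of 20 settings, among them leaving out vehicle replicate 1 or 3 or YWCH-4A replicate 1 or 3 (adjusted p from 0.0511 to 0.0822). With YEXX-2A it was -0.33 (edgeR adjusted p = 0.117), and it was called without vehicle replicate 3 (-0.45, adjusted p = 0.0436).

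Ddit3 (ENSRNOG00000006789) encodes CHOP, the factor that carries prolonged stress towards cell death. It was at 38.2, 41.4 and 41.0 CPM with vehicle, at 30.7, 32.1 and 30.3 CPM with YEXX-2A and at 29.2, 28.9 and 27.0 CPM with YWCH-4A. Both compounds gave levels below all vehicle libraries, and the lowest YEXX-2A library was close to the highest YWCH-4A library. It fell by 0.37 with YEXX-2A (SE 0.08, edgeR adjusted p = 0.00856) and by 0.50 with YWCH-4A (SE 0.08, edgeR adjusted p = 0.000633).

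Trib3 (ENSRNOG00000007319), a pseudokinase induced by ATF4 and CHOP that feeds back on both, was at 103.8, 161 and 126 CPM with vehicle. It was at 89.4, 90.0 and 97.1 CPM with YEXX-2A and at 19.7, 20.6 and 22.3 CPM with YWCH-4A. The vehicle libraries spread widely for this gene (coefficient of variation 22.1%), and even so no group overlapped another. With YWCH-4A the fall was 6.25-fold (log2 fold change -2.64 with an SE of 0.14, edgeR adjusted p = 2.74e-07). With YEXX-2A it fell by 0.50 on the log2 scale (SE 0.13, edgeR adjusted p = 0.019). That value was -0.32 without vehicle replicate 2, and the call was lost without YEXX-2A replicate 1 or 2 (adjusted p = 0.0663 and 0.0745).

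The enzymes follow. Chac1 (ENSRNOG00000014387) encodes a cyclotransferase that breaks down glutathione in the cytosol. It was at 72.1, 97.9 and 84.6 CPM with vehicle, at 54.0, 61.4 and 62.5 CPM with YEXX-2A and at 12.8, 11.2 and 12.5 CPM with YWCH-4A. The groups stepped down without overlap, and the YWCH-4A libraries were furthest from the rest. It fell 6.97-fold with YWCH-4A (log2 fold change -2.80 with an SE of 0.12, edgeR adjusted p = 5.68e-08), the steepest fall of the 10. With YEXX-2A it fell by 0.52 on the log2 scale (SE 0.11, edgeR adjusted p = 0.00981).

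Asns (ENSRNOG00000007546), asparagine synthetase, makes asparagine from aspartate and glutamine and is the textbook target of the amino acid response. It stood at 394, 426 and 395 CPM with vehicle, at 355, 362 and 373 CPM with YEXX-2A and at 167, 172 and 171 CPM with YWCH-4A. Replicates were tight, with a coefficient of variation of 4.42% or less in each group. It fell 2.38-fold with YWCH-4A (log2 fold change -1.25 with an SE of 0.06, edgeR adjusted p = 7.01e-08). The fall of 0.16 with YEXX-2A (edgeR adjusted p = 0.0485) was called under 6 of 20 settings. It was -0.07 on the log2(FPKM + 1) scale (limma adjusted p = 0.182), and the call was lost on leaving out any library but vehicle replicate 2 or 3.

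Sesn2 and Ddit4 both restrain the growth kinase mTORC1, Sesn2 as a leucine sensor and Ddit4, which encodes REDD1, through the TSC complex. Sesn2 (ENSRNOG00000042785) was at 112, 154 and 128 CPM with vehicle, at 84.2, 96.9 and 100.7 CPM with YEXX-2A and at 45.0, 50.1 and 52.7 CPM with YWCH-4A. Ddit4 (ENSRNOG00000057078) was at 76.3, 110.1 and 82.4 CPM with vehicle, at 57.5, 66.5 and 64.7 CPM with YEXX-2A and at 53.3, 53.0 and 56.0 CPM with YWCH-4A. For Sesn2 the YWCH-4A libraries were well below the others, while the lowest vehicle library (112 CPM) was near the highest YEXX-2A library (100.7 CPM). For Ddit4 the YWCH-4A libraries lay only just under the YEXX-2A libraries. Sesn2 fell by 1.41 on the log2 scale with YWCH-4A (SE 0.12, edgeR adjusted p = 7.6e-06) and by 0.48 with YEXX-2A (SE 0.12, edgeR adjusted p = 0.0145). Ddit4 fell by 0.73 with YWCH-4A (SE 0.12, edgeR adjusted p = 0.00127) and by 0.51 with YEXX-2A (SE 0.12, edgeR adjusted p = 0.0147). Without vehicle replicate 2 the Ddit4 value with YEXX-2A was -0.34. Without YEXX-2A replicate 1 both calls with that compound were lost (adjusted p = 0.0596 and 0.0604), and that of Sesn2 also without replicate 2 (0.0514).

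Stc2 (ENSRNOG00000020729), a secreted glycoprotein hormone, was at 41.8, 52.2 and 46.6 CPM with vehicle, at 29.3, 29.8 and 32.0 CPM with YEXX-2A and at 8.07, 8.72 and 7.13 CPM with YWCH-4A. No groups overlapped. It fell 5.85-fold with YWCH-4A (log2 fold change -2.55 with an SE of 0.11, edgeR adjusted p = 6.74e-08). The fall of 0.63 with YEXX-2A (SE 0.10, edgeR adjusted p = 0.00368) was the steepest of the 10 with that compound.

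In the comparison with YEXX-2A, 8 members had all compound libraries below all vehicle libraries, as had 26.3% of tested genes. Calls of Ddit3, Chac1 and Stc2 held under 20 of 20 alternative settings. The count of 8 called members was 3 without YEXX-2A replicate 1 and 4 without replicate 2. It was 4 when only the vehicle and YEXX-2A libraries were fitted, and 8 without vehicle replicate 2. Calls over all genes went from 4145 to 1459, 1044, 1408 and 4083 under the same settings in turn. With YWCH-4A the 9 falls were called under all 20 settings.

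The compounds were then compared with each other, over 3 libraries each. Their doses are not given in the labels, so the comparison is of the conditions as labelled. Between them 7 members were lower with YWCH-4A and Atf3 was higher, against 15.1% and 16.2% of tested genes. The median log2 difference of the 10 (YWCH-4A minus YEXX-2A) was -1.04, and 0.00 over all tested genes. Chac1 was 4.87-fold lower (log2 fold change -2.28 with an SE of 0.12, edgeR adjusted p = 2.73e-07), Trib3 4.42-fold (edgeR adjusted p = 1.34e-06) and Stc2 3.79-fold (edgeR adjusted p = 5.65e-07). Atf5 (2.40-fold), Asns (2.14-fold), Atf4 (1.97-fold) and Sesn2 (1.91-fold) were lower by less than that, and Atf3 was higher by 0.87 on the log2 scale (edgeR adjusted p = 0.00159). Those 8 calls held under all 20 settings. In the same comparison 11 of 13 mitochondrially encoded transcripts were lower with YWCH-4A and none was higher (median -0.74), and the part of this in the result was not tested.

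Ddit3 and Ddit4 were not called between the compounds. The log2 difference of Ddit3 was -0.13 (95% interval -0.30 to 0.04, edgeR adjusted p = 0.228). That of Ddit4 was -0.22 (95% interval -0.49 to 0.06, edgeR adjusted p = 0.208). Ddit4 was called with only the libraries of the compounds in the fit (adjusted p = 0.00757), without vehicle replicate 2 (0.0063) and with a score for within-group variation as a covariate (0.00485). The plot of changes with their intervals sets the 3 comparisons side by side. Both comparisons with vehicle share the same vehicle libraries.

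**Figure D2:**
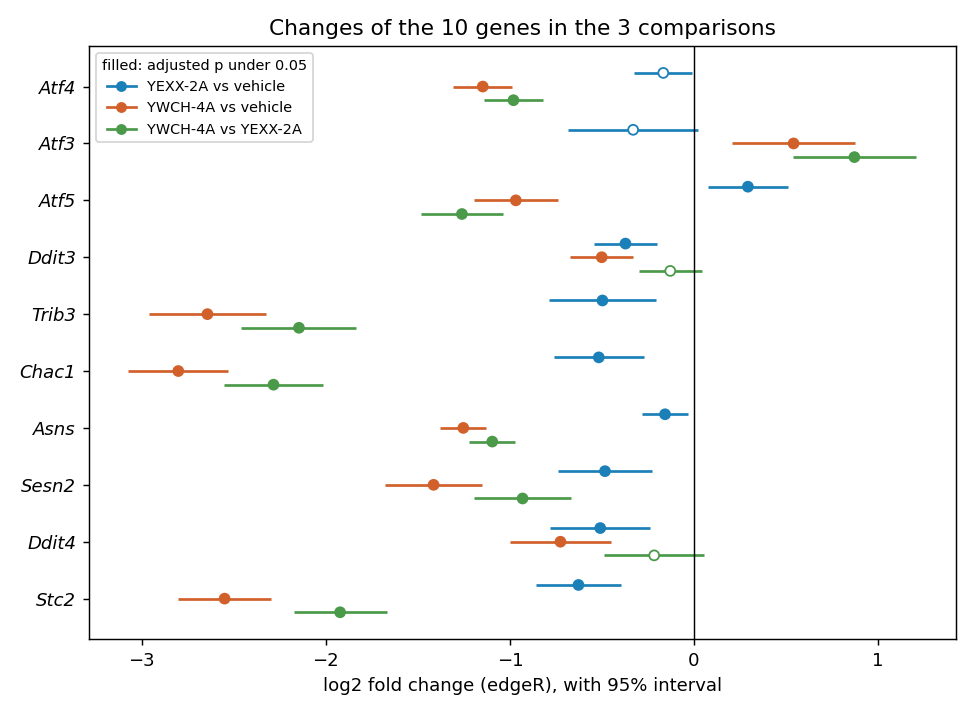
Log2 fold change (horizontal axis) of each gene in the 3 comparisons, with the 95% interval of the edgeR fit as a line and filled dots for an adjusted p under 0.05. The intervals of Chac1, Trib3 and Stc2 with YWCH-4A lie below -2, and those of Ddit3 and Ddit4 between the compounds reach across 0.

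Levels per transcript length (FPKM) gave the order of the members. With vehicle Atf4 led at 449.8 ± 22.9 FPKM (SD, n = 3), followed by Asns at 184 ± 1.18 FPKM. Trib3 (63.0), Chac1 (50.8), Ddit4 (48.8), Atf5 (42.5) and Ddit3 (42.5 FPKM) came next, and each of these overlapped its neighbour over the libraries. Sesn2 (32.9) and Stc2 (28.3 FPKM) followed, overlapping each other, and Atf3 was last at 2.54 ± 0.348 FPKM. With YWCH-4A Atf4 (229.5 ± 1.58 FPKM) and Asns (87.2 ± 1.34 FPKM) still led and Atf3 (4.18 ± 0.269 FPKM) was still last. In between the order was Ddit3 (34.4), Ddit4 (33.4), Atf5 (24.6), Sesn2 (14.0), Trib3 (11.4), Chac1 (8.23) and Stc2 (5.44 FPKM), where Ddit3 and Ddit4 overlapped and no other neighbours did. Trib3 thus went from place 3 to place 7 and Ddit3 from place 7 to place 3.

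Set against Atf4 in the same library, the members did not keep their proportions with YWCH-4A. Chac1 stood at 11.3 ± 0.721% of the Atf4 FPKM with vehicle (SD, n = 3), at 8.86 ± 0.365% with YEXX-2A and at 3.59 ± 0.246% with YWCH-4A. Trib3 was at 13.9 ± 1.79%, 11.2 ± 0.391% and 4.98 ± 0.258%, and Stc2 at 6.28 ± 0.147%, 4.57 ± 0.148% and 2.37 ± 0.258%. For these genes the fall went beyond that of Atf4 in every library of YWCH-4A.

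Asns kept closer to its share, 41.0 ± 2.18% with vehicle, 41.2 ± 0.869% with YEXX-2A and 38.01 ± 0.507% with YWCH-4A, where all 3 libraries were below the others. Sesn2 was at 7.31 ± 0.494%, 5.89 ± 0.322% and 6.10 ± 0.429%. Ddit3 rose against Atf4, from 9.47 ± 0.586% with vehicle to 14.99 ± 0.833% with YWCH-4A, as did Ddit4, from 10.8 ± 1.17% to 14.6 ± 0.29%. Atf3 went from 0.565 ± 0.077% to 1.82 ± 0.109%. Atf5 went from 9.46 ± 0.847% to 13.0 ± 1.35% with YEXX-2A and 10.7 ± 0.368% with YWCH-4A. These shares are descriptions, and 3 libraries against 3 allow no exact permutation p below 0.10.

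**Figure D3:**
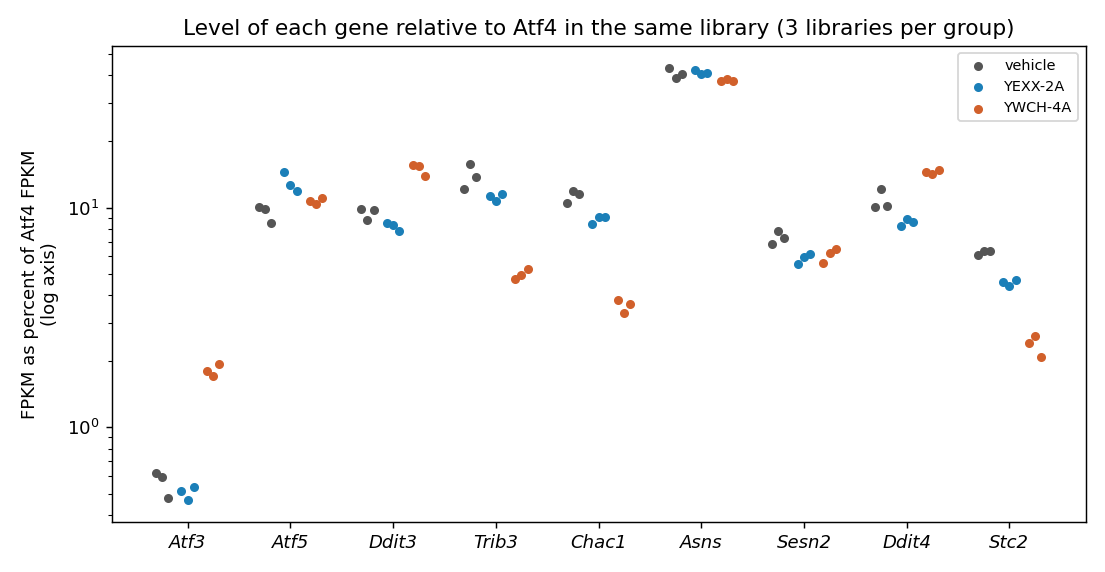
FPKM of 9 genes as a percent of the Atf4 FPKM of the same library (log axis), with 1 dot per library. With YWCH-4A the dots of Trib3, Chac1 and Stc2 sit below those of the other groups and the dots of Atf3, Ddit3 and Ddit4 above them.

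The genes that set ATF4 output were examined from lists chosen with earlier results of these data known, so their counts are descriptions. Among all tested genes, called shares were 15.7% higher and 14.9% lower with YWCH-4A, and 17.6% and 18.5% with YEXX-2A. Between the compounds they were 16.2% higher and 15.1% lower with YWCH-4A. These shares apply beside the counts of every list below that come from the fit to all 9 libraries. Of 20 genes for the eIF2 kinases, phosphatase subunits, eIF2 and its exchange factor eIF2B, 4 rose and 4 fell with YWCH-4A (median -0.04), and 6 rose and 5 fell with YEXX-2A (median 0.13). The amino acid sensor kinase gene Eif2ak4 (GCN2) was at 38.1, 36.5 and 39.8 CPM with vehicle and at 49.4, 48.1 and 50.5 CPM with YWCH-4A. It rose by 0.37 on the log2 scale (SE 0.07, edgeR adjusted p = 0.00223). Smaller rises with YWCH-4A were called for Eif2ak3 (PERK, the kinase of the endoplasmic reticulum, 0.30) and Eif2ak1 (HRI, the haem-regulated kinase, 0.24). Impact, which encodes an inhibitor of GCN2 activation, rose with both compounds, by 0.70 with YWCH-4A and 0.85 with YEXX-2A (edgeR adjusted p = 0.0143 and 0.00981). Gcn1, which encodes the ribosome-bound activator of GCN2, fell with both, by 0.41 and 0.42 (edgeR adjusted p = 0.0107 and 0.0147). Vehicle replicate 2 was the lowest vehicle library for Impact (29.7, 18.1 and 35.9 CPM) and the highest for Gcn1 (269.8, 347.1 and 264.7 CPM). Changes of these genes without that library are not given here. Eif2b3, a subunit gene of eIF2B, fell by 0.40 with YWCH-4A (edgeR adjusted p = 0.00369) and was not called with YEXX-2A (0.13). Called genes of the list went in both directions, activators and inhibitors among them, and the counts were not tested against those shares.

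Eif2ak2 (PKR, the kinase activated by double-stranded RNA) was at 21.4, 13.9 and 21.3 CPM with vehicle and at 37.5, 47.8 and 36.3 CPM with YEXX-2A, a rise of 1.10 on the log2 scale (SE 0.17, edgeR adjusted p = 0.00253). With YWCH-4A it was not called (-0.05, edgeR adjusted p = 0.832). Ppp1r15a (GADD34), the stress-induced subunit that directs dephosphorylation of eIF2 and is itself an ATF4 target, fell by 0.32 with YEXX-2A and by 0.34 with YWCH-4A (edgeR adjusted p = 0.0186 and 0.0106). Its constitutive counterpart Ppp1r15b was not called with either (0.22 and -0.02).

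Cebpb and Cebpd, which encode leucine zipper partners of ATF4, moved in opposite directions with the compounds. Cebpb was at 122, 147 and 102 CPM with vehicle, at 84.7, 82.4 and 84.9 CPM with YEXX-2A and at 199.9, 196 and 205 CPM with YWCH-4A. It fell by 0.56 with YEXX-2A (SE 0.11, edgeR adjusted p = 0.00668) and rose by 0.70 with YWCH-4A (SE 0.11, edgeR adjusted p = 0.000599). Cebpd was at 10.2, 10.7 and 9.62 CPM with vehicle, at 6.60, 5.95 and 6.44 CPM with YEXX-2A and at 21.4, 21.6 and 21.95 CPM with YWCH-4A. Its changes were -0.69 and 1.09 on the log2 scale (edgeR adjusted p = 0.00244 and 9.56e-06). Between the compounds Cebpb differed by 1.25 and Cebpd by 1.77 (edgeR adjusted p = 1.04e-05 and 3.14e-07).

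Cebpg, the partner with which ATF4 drives amino acid genes, was not called against vehicle (0.24 with YEXX-2A and -0.22 with YWCH-4A) and was lower with YWCH-4A than with YEXX-2A (-0.46, edgeR adjusted p = 0.00436). In the whole list of 19 tested partners and regulators, 5 rose and 3 fell with YWCH-4A, and 3 rose and 4 fell with YEXX-2A. The translation repressor gene Eif4ebp1, also an ATF4 target, fell by 0.92 with YWCH-4A and by 0.43 with YEXX-2A. Jdp2, a leucine zipper repressor, fell by 0.66 with YWCH-4A.

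Further ATF4 targets, sorted by function, were mostly lower with YWCH-4A. Of 12 tested genes of amino acid synthesis and one-carbon metabolism 11 fell and none rose, with a median of -1.06. Gpt2, whose enzyme makes alanine from glutamate or the reverse, went from 80.3, 90.7 and 90.5 CPM to 29.4, 29.2 and 30.8 CPM (log2 fold change -1.55 with an SE of 0.07, edgeR adjusted p = 9.32e-08). The folate enzyme gene Aldh1l2 fell by 2.22, the proline synthesis gene Pycr1 by 1.47 and the mitochondrial folate enzyme gene Mthfd2 by 0.92. Aldh18a1 was the exception, with levels from 0 to 74.6 CPM that differed widely within the vehicle and YEXX-2A groups. Its log2 fold change with YWCH-4A was 1.86, with a 95% interval from -2.53 to 6.25 (edgeR adjusted p = 0.492).

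Of 10 tested amino acid transporters 8 fell with YWCH-4A and none rose (median -1.04). The leucine carrier gene Slc7a5 fell by 1.58, its partner Slc3a2 by 1.12 and the glycine transporter gene Slc6a9 by 1.59. Slc7a11, which brings in cystine for glutathione, was at 38.9, 25.4 and 40.5 CPM with vehicle, at 67, 66.7 and 50.7 CPM with YEXX-2A and at 6.24, 5.81 and 4.75 CPM with YWCH-4A. It thus fell by 2.63 with YWCH-4A (SE 0.20, edgeR adjusted p = 3.39e-06) and rose by 0.82 with YEXX-2A (SE 0.17, edgeR adjusted p = 0.00939). It is a shared target of ATF4 and the antioxidant factor NRF2.

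All 13 tested genes of the tRNA charging list fell with YWCH-4A (median -0.70). Sars1 was at -0.95, Cars at -0.93, Gars at -0.88 and Iars1 at -0.77. The list also includes Xpot, a gene of tRNA export and not of charging. The stress and signalling targets were mixed. Of 16, 9 fell and 2 rose with YWCH-4A (median -0.35), with the growth arrest gene Gadd45a at -1.74, the lipoprotein receptor gene Vldlr at -1.71, the oxidase gene Ero1a at -0.82 and the pro-apoptotic gene Bcl2l11 at 1.21.

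With YEXX-2A the same lists gave smaller values. In amino acid synthesis 8 of 12 fell and none rose (median -0.26), with Pycr1 at -0.68 and the serine synthesis gene Phgdh at -0.52. In transport 5 of 10 fell and 2 rose, Slc7a11 and the glutamine carrier gene Slc38a2 (0.37), with a median of -0.23. In tRNA charging 5 of 13 fell and Lars1 rose (0.49), with a median of -0.14. In the stress and signalling list 7 of 16 fell and 2 rose (median -0.26), with Gadd45a at -0.69 and Ero1a at -0.38. Between the compounds, 9 of 12, 7 of 10, 13 of 13 and 6 of 16 genes of these lists were lower with YWCH-4A, and 0, 1, 0 and 3 were higher.

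The other branches of the unfolded protein response, run by ATF6 and XBP1, did not show that pattern. Of 20 tested genes 4 rose and 2 fell with YWCH-4A (median 0.12), and 5 rose and 1 fell with YEXX-2A (median 0.04). Hspa5, the chaperone BiP and the standard marker of these branches, was at 858, 789 and 947 CPM with vehicle, at 924, 1015 and 998 CPM with YEXX-2A and at 998, 1007 and 996 CPM with YWCH-4A. It was not called with YWCH-4A (0.21, 95% interval 0.05 to 0.37, edgeR adjusted p = 0.0503). Sdf2l1 rose by 0.50 and the sensor gene Ern1 by 0.23 with YWCH-4A, while Sel1l and Edem1, of protein degradation from the endoplasmic reticulum, fell by 0.31 and 0.25. Without vehicle replicate 2, 9 of these genes rose and 3 fell with YWCH-4A. Over all genes that setting called 2367 higher and 2221 lower, in place of 1801 and 1715. The 13 mitochondrially encoded transcripts, given as a reading of RNA quality, rose in 8 cases with YEXX-2A, and 1 fell with YWCH-4A (6 without vehicle replicate 2). Their part in the results was not tested.

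**Figure D4:**
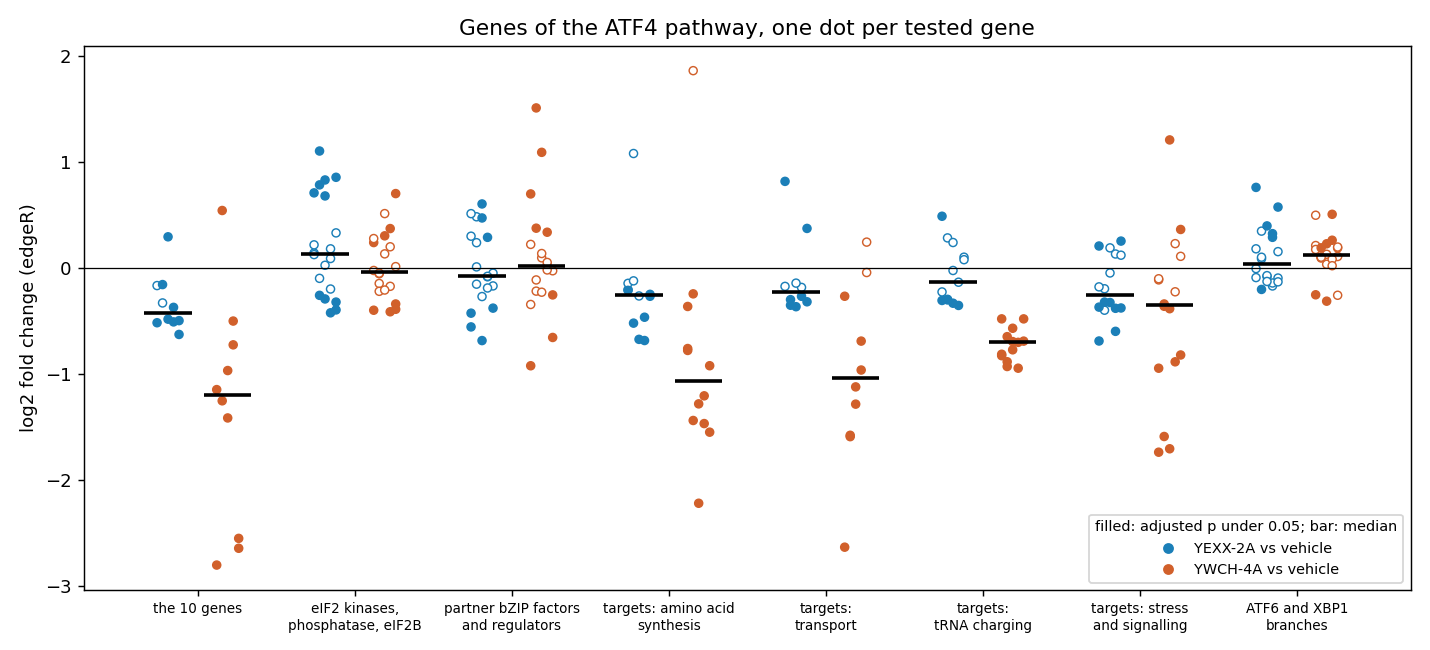
Log2 fold change against vehicle (vertical axis) of every tested gene of the 10 members and of 7 pathway lists, with blue dots for YEXX-2A, orange dots for YWCH-4A, filled dots for an adjusted p under 0.05 and bars at the median. With YWCH-4A the medians of the members, amino acid synthesis and transport lie below -1, and that of the ATF6 and XBP1 branches is 0.12.

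The genes with the pattern most like Atf4 over the 9 libraries, by Pearson correlation of log2 CPM among 9428 genes outside the 10 members averaging 5 CPM or more, were Ccn1 (0.9986), Gadd45g (0.998), Slc7a5 (0.9968), Sgk1 (0.9962) and Fntb (0.9962). The 3 YWCH-4A libraries stand apart for all of them, so these values mainly read the difference between YWCH-4A and the rest. Ccn1, a matrix-associated signalling protein, was at 366, 523 and 406 CPM with vehicle, at 338, 362 and 383 CPM with YEXX-2A and at 84.5, 86.2 and 96.6 CPM with YWCH-4A. Of the members, Trib3 (0.9982), Chac1 (0.9976) and Asns (0.9965) were nearest to Atf4 by the same measure, and Stc2 (0.9897), Sesn2 (0.973), Atf5 (0.9214), Ddit4 (0.7856) and Ddit3 (0.7755) were further off. Atf3 ran the other way (-0.7891).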

How the data were processed

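Poly(A) RNA-seq of 9 libraries was analysed. Per the labels' protocols, libraries were made with an NEBNext Ultra kit. The submitters' processing notes name StringTie 1.3.1, RSEM, DESeq2 and edgeR without saying what each did, and the aligner, genome build and gene models are not given in the sources used here. Per the file headers, the authors deposited for each library an estimated count of every gene, not normalized. Beside it they deposited an FPKM column, scaled by gene length and library size. Of the counts above 0, 8.87% were not whole (tolerance 1e-06), and all were rounded. A deposited table of group values was not used.

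Genes were filtered with filterByExpr (minimum count 10), scaled with TMM factors and compared by quasi-likelihood in edgeR 4.0.16 (R 4.3.3, robust setting), fitted to the 9 libraries by group. P-values were two-sided, adjusted by Benjamini-Hochberg over 11473 genes and called under 0.05. The groups shared an estimate of the spread although they differed in it. Standard errors are the change divided by the root of its F statistic. CPM use the scaled library sizes, and FPKM served to compare genes with each other.

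The settings varied were the scaling (size factors from DESeq2, or upper quartile) and the filter (none, or 1 CPM in 6 libraries). Other tests were DESeq2 1.42.0, limma 3.58.1 with voom, and limma-trend on log2(FPKM + 1) and log2(FPKM + 0.1). Other designs used only the libraries of the groups compared, a replicate block, a library score as covariate (the leading component of within-group deviations), or left out each library in turn.

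The members and lists were chosen with earlier results of these data known. Named were the members, up to 4 genes per list with the smallest p in a comparison, the eIF2 kinases, Ppp1r15a, Ppp1r15b, Cebpb and Cebpg, and the 5 genes outside the members most correlated with Atf4. Slc38a2, Lars1, Hspa5 and Aldh18a1 were named after their values were seen.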

Additional observations from a re-analysis of the deposited data

How the results depend on the processing

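No member changed direction under the 20 alternatives. With YWCH-4A against vehicle, 194 of 200 single-gene results kept their call and 6 (all Atf3) lost it. With YEXX-2A 164 kept it, 33 lost it and 3 gained it, and between the compounds 197 kept it and 3 gained it. With only the groups compared, 4 members were called with YEXX-2A in place of 8, and leaving out 1 library gave 3 to 8. Over all genes, that setting called 1408 with YEXX-2A (4145 otherwise) and 5903 between the compounds (3593 otherwise). Leaving out 1 library gave 1044 to 5308 with YEXX-2A, with 1459 and 1044 without YEXX-2A replicates 1 and 2. Between the compounds it gave 2225 (without YEXX-2A replicate 2) to 6001 (without vehicle replicate 2), with 2288 and 2293 without YWCH-4A replicates 1 and 3. The library score is made from the spread it then takes up, and with it 7323, 6491 and 6485 genes were called in the 3 comparisons (3516 with YWCH-4A otherwise). Between the compounds, limma on log2(FPKM + 1) put 72.6% of calls higher, against 51.7%. It set the median of all genes at 0.179 with YWCH-4A.

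No pairing of the libraries by replicate number was seen, and with 3 libraries per group this check cannot exclude it. Deviations of same-numbered libraries correlated between -0.265 and 0.0807, and 0 of 9 libraries correlated best with their own number. A replicate block gave 1931 genes and 6 members with YEXX-2A, where Atf5 and Asns were not called. With YWCH-4A it gave 2787 genes and 9 members, and 2612 and 8 between the compounds. Without vehicle replicate 2, a choice made after seeing the data, calls between the compounds over all genes numbered 6001 in place of 3593. Those of the eIF2 list then numbered 11 in place of 5 and those of the partner list 15 in place of 9. Those of the ATF6 and XBP1 list numbered 15 in place of 6. The list counts were not tested against the gain over all genes. Depth limits Atf3 most, with at most 155 counts per library.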
